A study of Mus musculus with 2 samples.

Results

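A set of 10 genes that neutrophils switch on as they mature was followed in the adrenal gland, 10 of the 55536 annotated genes in the deposited tables. They are Mpo, Elane, Prtn3 and Ctsg, the 4 primary granule genes, and Ngp, Camp, Ltf, Retnlg, S100a8 and S100a9, the 6 later genes. The set was chosen by what was measured, the ratio of replicate 2 over replicate 1 in these same libraries, so the ratios below describe the genes and carry no test. Adrenal glands came from male B6CASTF1/J mice, F1 hybrids of C57BL/6J and CAST/EiJ, at 10 days of age with no treatment named. Total RNA of each of 2 samples (300 ng, with ERCC spike-in transcripts) gave 1 stranded, ribosomal RNA-reduced library, and both form a single group. The labels number the animals 3 and 4 in one field and 3 for both in another, and give both one donor identifier, so whether the 2 libraries are separate animals is not settled. With 1 library per replicate, no exact test between the replicates can show a difference, and no p-value is given.

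Neutrophils are short-lived white blood cells made in the bone marrow, where promyelocytes fill primary (azurophil) granules with a peroxidase and serine proteases. Later stages, the myelocyte and metamyelocyte, stop that programme and fill specific granules with antimicrobial proteins such as lactoferrin and cathelicidin, while calprotectin, the S100a8 and S100a9 pair, collects in the cytosol. Transcripts of the early granule genes are largely gone from mature cells in blood, whereas calprotectin transcripts persist, so the balance of early to late transcripts is commonly used to place neutrophils along their maturation. C/EBP factors, PU.1 and RUNX1 are known regulators of these genes.

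Short stretches before the transcription start are shown because these factors are known to act on such genes. No link between the letters and the replicate ratios was tested. All 10 members matched the RefSeq promoter table (GRCm38.p6, the assembly also called mm10). Windows from 250 bases before to 50 after the RefSeq start were searched on both strands for GAGGAA (PU.1 and related ETS factors), TTNNGNAAT (C/EBP) and TGTGGT (RUNX), letter patterns that do not overlap one another in these windows. The letters printed end before the most upstream RefSeq or GENCODE start in the window, read 5′ to 3′ on the gene's strand, and capitals mark whole matches. The first 3 are primary granule genes with GAGGAA. The Prtn3 stretch lies before the RefSeq start at 79879667 but inside the annotated gene, which begins further upstream at 79874476.
Mpo (chr11:87793534-87793580, plus strand): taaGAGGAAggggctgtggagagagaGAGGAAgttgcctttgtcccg
Elane (chr10:79886112-79886246, plus strand): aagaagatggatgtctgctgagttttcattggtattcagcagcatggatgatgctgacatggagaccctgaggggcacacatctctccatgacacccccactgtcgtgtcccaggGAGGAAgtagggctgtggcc
Prtn3 (chr10:79879479-79879613, plus strand): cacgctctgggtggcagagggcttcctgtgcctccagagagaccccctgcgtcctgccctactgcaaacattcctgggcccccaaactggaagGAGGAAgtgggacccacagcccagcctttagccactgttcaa
The next 3 are later genes with the C/EBP letters, and in S100a9 also the RUNX letters. The Ltf window also holds GAGGAA, on the other strand and cut by the start of the stretch, and the RUNX letters beyond its end. Ctsg and S100a8, which also hold GAGGAA, are not printed, so the stretches do not show every match.
Ngp (chr9:110419612-110419746, plus strand): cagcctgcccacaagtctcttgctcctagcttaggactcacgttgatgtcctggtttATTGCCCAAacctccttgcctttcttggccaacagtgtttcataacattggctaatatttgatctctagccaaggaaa
Ltf (chr9:111019136-111019270, plus strand): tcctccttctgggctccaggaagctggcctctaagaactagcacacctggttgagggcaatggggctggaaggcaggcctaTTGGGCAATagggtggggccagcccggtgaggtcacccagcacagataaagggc
S100a9 (chr3:90695722-90695856, minus strand): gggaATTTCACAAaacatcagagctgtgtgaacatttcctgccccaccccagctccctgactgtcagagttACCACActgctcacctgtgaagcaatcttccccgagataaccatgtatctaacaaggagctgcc

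GAGGAA stood in the windows of all 4 primary granule genes and of 2 of the 6 later genes (Ltf and S100a8), against 28.3% of 32817 windows genome-wide. The C/EBP letters stood in 3 of the 6 later genes and none of the 4 primary ones, against 11.5% of windows. The RUNX letters stood in Ctsg, Ltf and S100a9, against 16.8%. In Mpo, Elane and Prtn3 the match ran on to GAGGAAGT, which also stood in S100a8 and in 3.20% of all windows, an extension picked after the letters were seen. Camp and Retnlg held none of these patterns. No binding was measured, a match is only a run of letters, and the reference is C57BL/6J, so CAST/EiJ alleles are not shown.

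All 10 genes had counts in both libraries and were higher in replicate 2, though in replicate 1 Elane with 2 counts and Ctsg with 3 did not exceed the floor of 3 counts. Levels are in TPM, a library-scaled transcript abundance that corrects for transcript length. The order of the 3 most abundant was the same in both libraries, S100a9, S100a8 and Ngp, while the primary granule genes filled the lowest 4 places in both. The primary genes summed to 0.980 TPM in replicate 1 and 4.15 TPM in replicate 2, and the later genes to 32.8 and 99.4 TPM. Together the 10 genes took 20.2 CPM (library-scaled counts) in replicate 1 and 61.6 in replicate 2, from 739 and 2379 expected counts (reads assigned to a gene, which need not be whole). In whole tissue, more neutrophils and more RNA per neutrophil cannot be told apart, and these are not the only possibilities. Genes of other tissues and cell types also differed between the libraries, as given below. Which cells or tissue the members' counts came from was not tested.

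**Figure D1:**
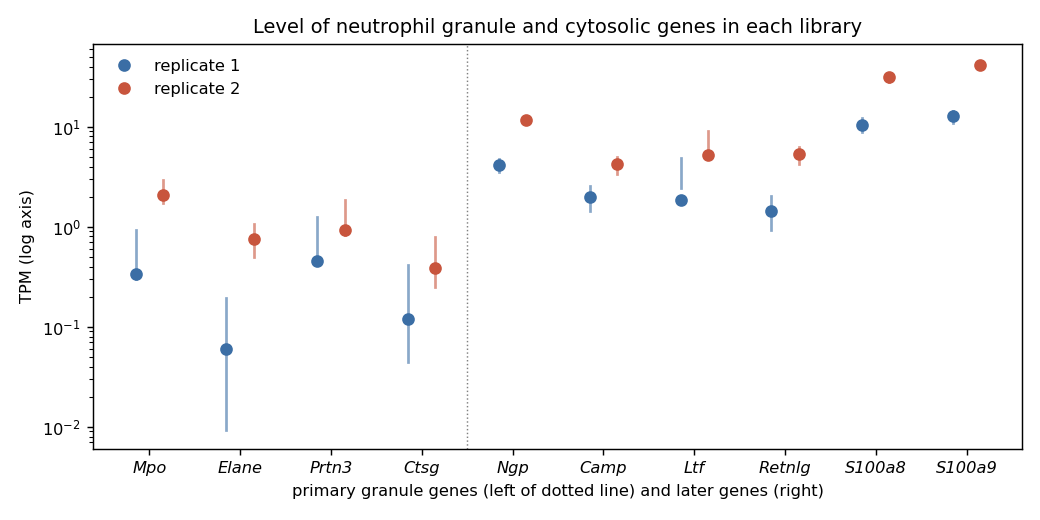
Level of each gene in TPM (log axis), 1 point per library, with the authors' deposited interval bounds of TPM as lines. Replicate 2 lies above replicate 1 for all 10 genes, and the 4 primary granule genes on the left lie below the 6 later genes on the right in each library.

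Among the primary granule genes, Mpo encodes myeloperoxidase, which turns hydrogen peroxide and chloride into hypochlorous acid. It lies on chromosome 11 at 87793581 to 87804413 (ENSMUSG00000009350.13) and had 19 counts in replicate 1 and 126 in replicate 2, which is 0.340 and 2.07 TPM. Mpo was thus 6.64-fold higher in replicate 2, with a counting interval of 4.08 to 11.4. Folds compare counts scaled by TMM, and intervals here are exact binomial (Clopper-Pearson) 95% intervals that cover counting error only, not the spread between animals.

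Elane, neutrophil elastase, and Prtn3, proteinase 3, are neighbouring serine protease genes on the plus strand of chromosome 10, Prtn3 (ENSMUSG00000057729.12) at 79874476 to 79883174 and Elane (ENSMUSG00000020125.7) at 79886247 to 79888215, with 3073 bases between them. Elane had 2 counts in replicate 1 and 25 in replicate 2 (0.060 and 0.760 TPM), a ratio of 12.5 with an interval of 3.12 to 109. Prtn3 had 11 counts in replicate 1 and 27 in replicate 2 (0.460 and 0.930 TPM), 2.46-fold higher (1.18 to 5.49). The folds of these neighbours differed 5.09 times, with a counting interval of 0.947 to 50.6. Prtn3 overlaps the start of Plppr3, a gene on the opposite strand with 43 and 79 counts, and the strand setting of the authors' counting is not given in the sources used here.

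Ctsg, cathepsin G, a granule protease of the chymase cluster on chromosome 14 (ENSMUSG00000040314.2, 56099881 to 56102574, minus strand), had the lowest mean count of the 10 genes, 8. It had 3 counts in replicate 1 and 13 in replicate 2 (0.120 and 0.390 TPM), a ratio of 4.34 (1.19 to 23.7). Its neighbour Mcpt8, a basophil protease, had 1 and 6 counts, and Gzme on the other side had 0 in both, where a floor of 3 counts applies to each library.

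Of the later genes, 3 lie on chromosome 9. Ngp, neutrophilic granule protein, related to the cathelicidins (ENSMUSG00000032484.8, 110419747 to 110423012), had 4.18 TPM in replicate 1 against 11.8 in replicate 2, 2.86-fold higher (2.40 to 3.42). Camp, the cathelicidin whose peptide kills bacteria (ENSMUSG00000038357.10, 109847379 to 109849617), stood at 1.99 and 4.21 TPM, 2.15-fold higher (1.51 to 3.09). It had the smallest ratio of all 10 members. Ltf, lactoferrin, which binds iron (ENSMUSG00000032496.7, 111019271 to 111042767), stood at 1.84 and 5.19 TPM, 3.55-fold higher by counts (2.88 to 4.41) and 2.82-fold by TPM. The fold of Camp was 0.675 times that of the other 5 later genes summed (counting interval 0.469 to 0.983), and for the others this ratio ran from 0.895 for Ngp to 1.21 for Retnlg. As all of these rest on the ratios that chose the set, no gene is called different from them.

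Retnlg, a resistin-like protein of granulocytes on chromosome 16 (ENSMUSG00000022651.6, 48872621 to 48874496), had 1.44 TPM in replicate 1 against 5.29 in replicate 2, from 26 and 97 counts. Its ratio of 3.73 (2.40 to 6.00) was the highest of the later genes. It moved from the sixth place by TPM among the members in replicate 1 to the fourth in replicate 2.

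S100a8 and S100a9 encode the subunits of calprotectin, which binds zinc and manganese, and lie on opposite strands of chromosome 3 with 22597 bases between them. S100a8 (ENSMUSG00000056054.9, 90668978 to 90670035) had 10.5 TPM in replicate 1 against 31.4 in replicate 2, and S100a9 (ENSMUSG00000056071.12, 90692632 to 90695721) at 12.8 and 41.5 TPM. They were 3.04-fold (2.52 to 3.68) and 3.29-fold higher (2.79 to 3.88) in replicate 2. S100a9 took 56.6% of the counts of the pair in replicate 1 (51.1 to 61.9) and 58.5% in replicate 2 (55.5 to 61.4). The intervals of these shares overlap.

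All 10 members were more than 2-fold higher in replicate 2, against 6.49% of the 18175 genes averaging 10 counts or more and 4.37% of the 13188 averaging 100 or more. Genes are counted past 2-fold on the log2 ratio with 0.5 counts added to each library. Since the ratio chose the members, nothing is read from that contrast. Ctsg, with a mean of 8, falls under the lower of these minimums, and 4 members (Ngp, Ltf, S100a8 and S100a9) reach the higher. Over the 18175 genes the median log2 ratio was 0.001. As a description of counting precision, the lower bound of the fold was above 2 for 7 members and between 1 and 2 for Prtn3, Ctsg and Camp. The authors' deposited bounds of TPM, whose level is not stated, were apart between libraries for 8 members and overlapped for Prtn3 (0.416 to 1.25 against 0.835 to 1.84) and Ctsg (0.0444 to 0.414 against 0.252 to 0.794). The TPM of Ltf lies below its own bounds in both libraries, 2.47 to 4.86 in replicate 1 and 5.68 to 8.98 in replicate 2.

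**Figure D2:**
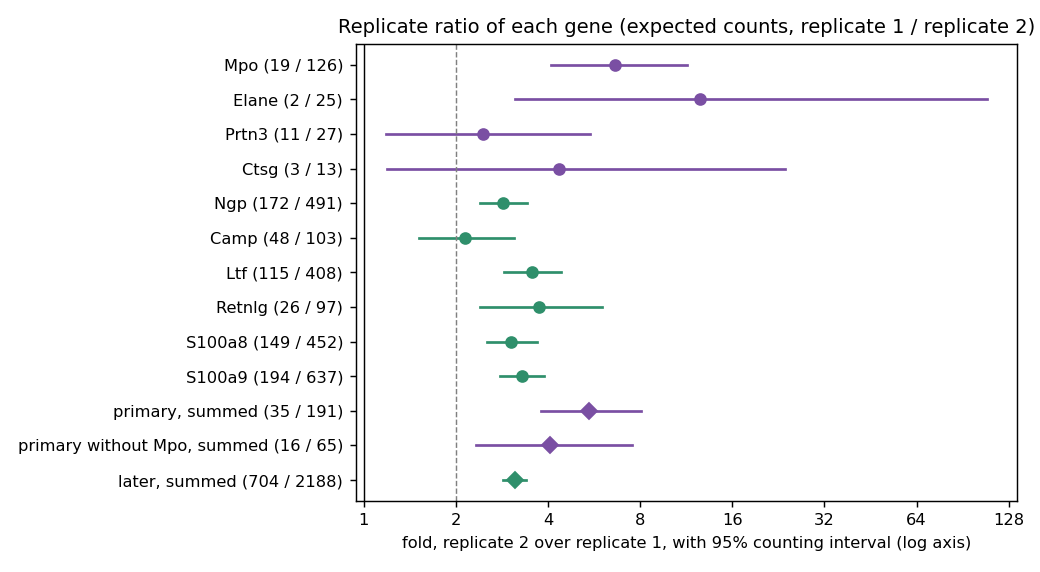
Fold of replicate 2 over replicate 1 (log axis) with 95% counting intervals, circles for single genes and diamonds for summed counts, with the expected counts of both libraries in brackets, primary granule genes in purple and later genes in green. The solid line is 1 and the dashed line 2, and the intervals of Elane (3.12 to 109) and Ctsg (1.19 to 23.7) are the widest.

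By stage, the ratios of the primary granule genes were higher at the median than those of the later genes, and spread more widely. The median log2 ratio was 2.32 for the 4 primary genes and 1.66 for the 6 later genes, a difference of 0.67. Summed counts were 35 and 191 for the primary genes, 5.46-fold (3.79 to 8.07), and 704 and 2188 for the later genes, 3.11-fold (2.86 to 3.39). The primary fold was 1.76 times the later fold, with a counting interval of 1.21 to 2.62. Without Mpo, the other 3 primary genes were 4.07-fold higher (2.33 to 7.53), which is 1.31 times the later fold with an interval of 0.742 to 2.44. The balance of the stages is what the genes were chosen on, and both values are descriptions.

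Mpo alone was 2.13 times the later fold (1.30 to 3.69) and 2.02 times the fold of S100a9 (1.20 to 3.56). Elane was 4.02 times the later fold with an interval of 0.998 to 35.1, Ctsg 1.39 times (0.382 to 7.65) and Prtn3 0.790 times (0.377 to 1.77). These ratios of folds come from the values that chose the genes, so they describe the 2 libraries and decide nothing about which genes differ. As a share of the counts of all 10 members, primary genes took 4.74% in replicate 1 (3.32 to 6.53) and 8.03% in replicate 2 (6.97 to 9.19). These ratios need no scaling between libraries.

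Within each library the primary genes stood far below the later genes. The log2 ratio of the median TPM of the primary over the later genes (0.1 TPM added) was -3.27 in replicate 1 and -3.19 in replicate 2 (mean -3.23, SD 0.056, n = 2). The primary medians behind it were 0.230 TPM in replicate 1 and 0.845 TPM in replicate 2, and the later medians 3.08 and 8.54 TPM. The 0.1 TPM added is large beside the primary median of replicate 1, which draws the values of the libraries together. The stage difference of 0.67 given above compares medians of gene log2 ratios and is not the same measure. With 5 counts added in place of 0.5, the difference of the stage medians in log2 ratio was 0.005.

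At transcript level, Elane, Ngp, Camp and Retnlg have 1 annotated transcript each. For S100a8 the authors' 2 quantifications placed different amounts on its retained-intron form. The alignment-based table gave it 5.60% of the counts of the gene in replicate 1 and 3.16% in replicate 2, and the table derived directly from reads and an index gave 38.2% and 36.4%. Mpo counts lay mainly on 1 protein-coding form, 84.0% and 87.8% in the alignment-based table. For Prtn3 the main protein-coding form took 74.1% of 11 counts and 55.8% of 27, while a retained-intron form had 0 counts in replicate 1 and 9.91 in replicate 2. The second table gave that form 4.11 and 4.59 counts. Whether the forms differed between the libraries was not tested.

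The second table changed the levels more than the ratios. Its TPM was 1.39 to 2.79 times that of the gene table over the members in replicate 1 and 1.42 to 2.65 times in replicate 2. S100a8, for example, stood at 24.9 and 65.5 TPM there. The ratios of the members in that table ran from 2.30 for Camp to 10.96 for Elane, and Mpo was 5.73-fold higher.

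The members' gene families set the scale of these levels. For all lists that follow, the counts stand beside the shares over all genes. Of the 18175 genes averaging 10 counts or more, 50.6% were higher in replicate 2 and 6.49% more than 2-fold. With no filter above 0 counts, 14.7% were more than 2-fold higher. Lists admit genes with more than 3 counts in a library, so neither share has the same filter. The S100 list also holds S100pbp, which encodes a binding partner and is no S100 gene, with 1048 and 1034 counts. Of the 18 listed genes, 13 had more than 3 counts in a library, 11 of them higher in replicate 2 and 3 more than 2-fold, S100a8, S100a9 and S100a7a. S100a7a had only 2 and 5 counts. The most abundant were S100a1 at 85.2 and 89.3 TPM, S100a11 at 59.8 and 82.8 TPM and S100a10 at 60.6 and 67.7 TPM, so the calprotectin genes were not the leading S100 transcripts. S100a13 had the lowest ratio, 0.970 (0.851 to 1.10).

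**Figure D3:**
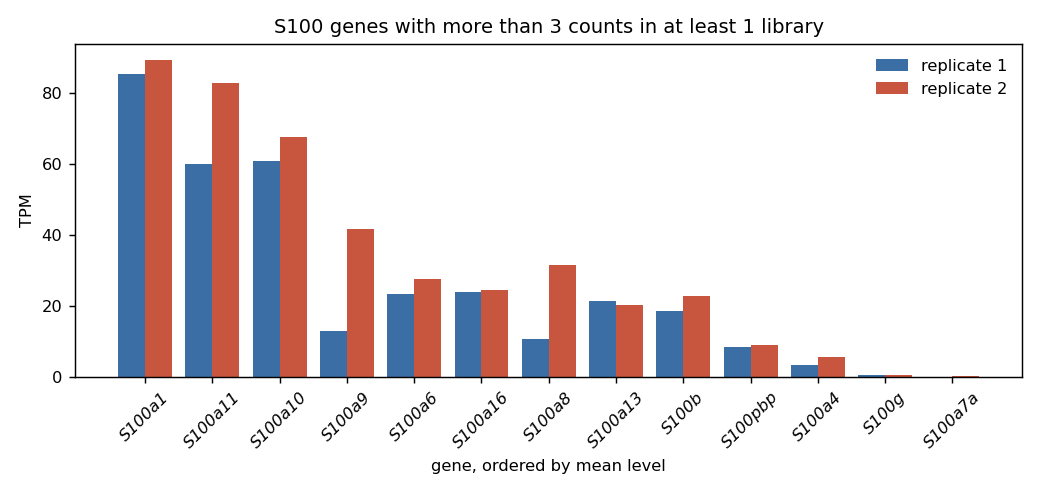
TPM of the 13 genes of the S100 list, S100pbp included, with more than 3 counts in at least 1 library, bars per library, ordered by mean level. S100a8 and S100a9 are the bars that differ most between libraries in ratio among the abundant members, 10.5 against 31.4 TPM and 12.8 against 41.5 TPM.

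Among resistin-like genes, Retn, the adipocyte hormone resistin, stood at 4.65 and 11.1 TPM, 2.43-fold higher in replicate 2 (1.98 to 3.00), Retnla at 2.90 and 3.50 TPM, 1.23-fold (0.841 to 1.80), and Retnlb had 0 counts in both. Among haem peroxidases, Epx, the eosinophil peroxidase, had 4 counts in replicate 1 and 28 in replicate 2, 7.01-fold higher (2.45 to 27.5), while Lpo had 0 counts in replicate 1 and 1 in replicate 2. In the transferrin family, Trf, the plasma iron carrier made by liver, had 729.5 TPM in replicate 1 against 2305 in replicate 2, 3.24-fold higher (3.21 to 3.28), and Meltf had 4 and 12 counts. Of 19 chymotrypsin-fold granule proteases, 12 had more than 3 counts in a library, 11 of them higher and 5 past 2-fold, Elane, Prtn3 and Ctsg included. The other, Gzma, a granzyme of cytotoxic lymphocytes, had 11 and 5 counts, 0.455-fold (0.124 to 1.42), more than 2-fold lower. The most abundant was Cfd, adipsin of fat cells, at 84.5 and 105 TPM, 1.26-fold (1.20 to 1.33), and the mast cell proteases Tpsb2, Cma1 and Mcpt4 had ratios of 1.42, 1.40 and 1.25.

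Most neighbouring genes of other families lay near or below a ratio of 1. Ptbp1 beside Prtn3 was at 0.953-fold (0.920 to 0.988), Tspoap1 beside Mpo at 0.675-fold (0.511 to 0.887), Ptpn23 and Klhl18 beside Ngp at 0.853-fold and 0.972-fold, Nme6 and Cdc25a beside Camp at 0.911-fold and 0.949-fold, and Dzip3 beside Retnlg at 0.966-fold. The exception was Gm10030, a processed transcript beside Ltf with 7 and 27 counts, 3.86-fold higher (1.64 to 10.5). Gm19810, a pseudogene after Elane, had 0 and 3 counts, Gm43814 beside Ltf 1 and 0, and Gm42579 beside S100a9 had 0 in both. The antisense gene Gm11505 inside Mpo had 0 counts in both libraries.

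Other genes of the neutrophil programme were also mostly higher in replicate 2, with list medians below those of the members. Over all genes averaging 10 counts or more, 50.6% were higher and 6.49% more than 2-fold. Of 13 other specific granule genes with more than 3 counts in a library, all were higher and 8 exceeded 2-fold, the median being 2.21. Olfm4, a granule glycoprotein, was 3.53-fold higher (2.03 to 6.46), Lcn2, a siderophore binder, 2.21-fold (1.74 to 2.84), and Chil3, a chitinase-like protein, 1.44-fold (1.07 to 1.94). Hp, haptoglobin, the most abundant of them at 86.3 and 262 TPM, is also a liver product. Bpi, with 1 and 0 counts, was not measured.

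All 27 genes of gelatinase granules and mature neutrophils had a ratio above 1, 15 exceeded 2-fold and the median was 2.55. Stfa1 and BC100530, stefins whose close copies share reads, were 3.25-fold (2.23 to 4.69) and 3.88-fold higher (2.75 to 5.73). Cxcr2, the chemokine receptor of mature neutrophils, had 16 and 53 counts, 3.32-fold (1.87 to 6.21). Several genes of this list had intervals that include 1. Among them were Padi4 at 1.39-fold (0.729 to 2.71), Ltb4r1 at 1.38-fold (0.690 to 2.80) and Mmp25 at 1.31-fold (0.733 to 2.35). Mmp9, gelatinase B, had 45 and 927 counts, 20.6-fold (15.3 to 28.5), and is also an osteoclast product. Mme had the lowest ratio, 1.09 (1.03 to 1.15).

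Of 9 other early-stage genes, 8 were higher and 3 exceeded 2-fold, the median being 1.69. This list holds widely expressed genes such as Calr, 1.12-fold, and Hsp90b1, 0.994-fold. Of its genes known mainly from granulocyte precursors, Ms4a3 had 0 and 7 counts, at least 2.34-fold higher against a floor of 3 counts, and Prss57, a granule serine protease, had 3 and 3. Ctsc, the peptidase that activates the granule proteases, stood at 4.65 and 7.86 TPM, 1.69-fold (1.47 to 1.94).

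All 10 genes listed as granulocyte transcription factors were higher, 1 exceeded 2-fold and the median was 1.54. The list also holds Per3, a circadian clock gene, at 1.69-fold. Cebpe, needed for specific granules, had 4 and 8 counts (2.00-fold, 0.536 to 9.08), and Gfi1 had 6 and 14, 2.34-fold (0.843 to 7.42), an interval that includes 1. Cebpa, also a liver and fat factor, was 1.49-fold higher (1.44 to 1.55), Spi1, which encodes PU.1, 1.84-fold (1.35 to 2.51) and Runx1 1.56-fold (1.25 to 1.95). Of 7 NADPH oxidase genes, whose product supplies the peroxide that Mpo uses, 6 were higher and 2 more than 2-fold, Ncf4 at 3.73-fold (2.19 to 6.66) and Rac2 at 2.60-fold (2.14 to 3.17), while Rac1 was at 0.977-fold.

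Of 11 activators and inhibitors of granule proteases, 10 were higher and 7 exceeded 2-fold, the median being 2.72. The leading 4 were Serpina1b, Serpina1a, Serpina1d and Serpina1c, liver-made elastase inhibitors of near-identical sequence, at 3.09-fold to 3.40-fold. Serpinb1a, the inhibitor inside neutrophils, was at 0.871-fold (0.779 to 0.974). Receptors of the secreted proteins had a median ratio of 1.10, with 6 of 10 higher and 4 lower. Tlr4, a calprotectin receptor, was at 1.29-fold (1.09 to 1.52), Ager, another, at 0.730-fold (0.458 to 1.15), and Fpr2, a receptor of the Camp peptide, had 4 and 20 counts, 5.01-fold (1.68 to 20.1).

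Most lists of other cell types had a median ratio above 1, while both lists of adrenal cells lay below 1, and their part in the members' ratios was not tested. All 6 measured eosinophil markers were higher, 5 more than 2-fold, with summed levels of 0.930 and 4.12 TPM and Ear6 at 0 in replicate 1. Their median ratio was 4.17, against 5.01 for the primary and 3.15 for the later members. Prg2, the eosinophil major basic protein, had 7 and 49 counts, 7.01-fold (3.16 to 18.3). All 10 bone and cartilage markers were higher, 9 more than 2-fold, with summed levels of 9.47 and 103 TPM and none at 0. Their median ratio was 25.9, above that of either stage of the members. Spp1, the most abundant, was 12.2-fold higher (10.4 to 14.4), Ibsp had 1 and 394 counts, and Alpl had the lowest ratio, 1.69 (1.45 to 1.97). All 8 osteoclast markers were more than 2-fold higher, with a median ratio of 4.52 and sums of 12.9 and 53.9 TPM. Among them was Ctsk, a bone-resorbing protease, at 4.75-fold (4.10 to 5.53).

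Markers of other blood cells had list medians from 1.21 to 2.44. The median ratio was 1.33 for 8 monocyte markers, none more than 2-fold higher, with sums of 23.5 and 35.5 TPM, and 1.64 for 10 tissue macrophage markers, 4 more than 2-fold, with sums of 42.2 and 67.5 TPM. It was 1.49 for 9 erythroid precursor markers, all higher and none more than 2-fold (24.2 and 30.9 TPM), and 1.21 for 9 progenitor markers (55.9 and 62.0 TPM), whose leading gene Cd34 is also made by endothelium. It was 1.93 for 8 megakaryocyte markers, all higher and 4 more than 2-fold (8.93 and 14.2 TPM), and 1.41 for 8 mast cell and basophil markers (13.3 and 16.01 TPM). B cell precursor markers had a median ratio of 2.44 (15.5 and 22.5 TPM) but split, with 5 of 9 more than 2-fold higher, Igll1 at 0 and 16 counts, and Rag1 and Dntt more than 2-fold lower at 0.249-fold (0.178 to 0.343) and 0.156-fold (0.0476 to 0.404). The labelled tissue was plain in both libraries: the 8 adrenal cortex markers summed to 6346 and 5553 TPM and the 7 chromaffin markers to 1518 and 1267 TPM, all of them lower in replicate 2 and within 2-fold. Apart from Ear6 and Igll1 in replicate 1, no marker of these cell type lists was at 0.

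**Figure D4:**
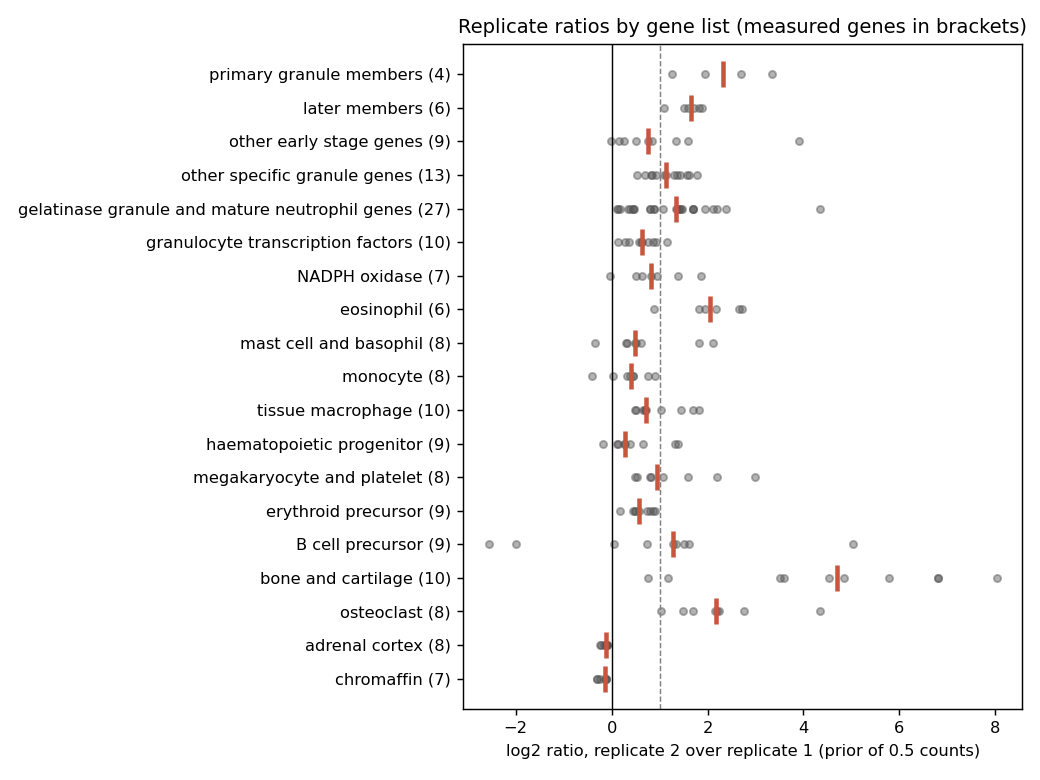
Log2 ratio of replicate 2 over replicate 1 for each gene with more than 3 counts in a library (grey points) and the list median (red bar), with the number of genes in brackets. The members (top 2 rows, medians 2.32 and 1.66) lie between the bone list and the adrenal lists, which sit at the right and just left of 0.

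Among protein-coding genes averaging 100 counts or more, those whose log2 ratio lay near the primary median included Cyp4a14, Nr1i3, Fosb and Ctsk, within 0.077, and 9 genes lay within 0.1. Those nearest to the later median were Abcg8, Klhl41, Aqp8, A1cf and Gstp3, within 0.0093, and 107 genes lay within 0.1. Likeness here is the closeness of 1 ratio over 2 libraries.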

How the data were processed

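Adrenal gland total RNA was sequenced in 2 libraries, used as a single group with the replicate numbers of the labels, holding 36982665 and 38984236 expected counts in all. Per the file headers and the deposited notes, the authors made a gene and a transcript table of expected counts, TPM, the percent of a gene's TPM per transcript and other interval bounds of TPM from transcriptome alignments (mm10, GENCODE M21), and a second transcript table of estimated counts and TPM from reads and an index. Tools and versions: not given in the sources used here.

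From these, counts of annotated genes were scaled by TMM (edgeR 4.0.16, R 4.3.3), with a prior of 0.5 counts for log2 ratios and none for folds, and intervals were computed with scipy 1.17.1. A ratio of 2 folds has a conditional exact interval. A gene was measured in a list with more than 3 counts in a library. Members were left out of the other early and specific granule lists, some genes (Ctsc, Cybb, Mmp9, Epx and others) stand in 2 lists, and 1 symbol was not matched. The naming rule takes all members, from each list the 4 most abundant and the highest and lowest ratio among genes averaging 10 counts or more, the small families whole, chromosomal neighbours and the 5 genes nearest each stage median; not every gene it takes is printed, and some are not reported here. Outside it, Cebpe, Spi1, Runx1, Cxcr2, Padi4, Ltb4r1, Mmp25, Ms4a3, Prss57, Ctsc and Bpi were named after their values were seen. So were Ear6, Igll1, Rag1, Gzma, S100a7a, S100pbp, Plppr3 and Gm11505. Members and lists were chosen with earlier results of these data known. Computations were tested on simulated counts. Alternatives covered DESeq2 (1.42.0) size factors, library and spike-in totals, priors, pseudocounts, TPM and the second table.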

Additional observations from a re-analysis of the deposited data

How the results depend on the processing

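All 10 members stayed more than 2-fold higher in replicate 2 under DESeq2 size factors, library total, spike-in total, TPM and the second table; with TMM, 7 were more than 3-fold higher. Of 50 member folds under these 5 settings, 49 stayed within the counting interval and none reversed. The exception was Ltf by TPM at 2.82-fold. This is a weak check, as a change of scaling shifts every fold by a shared factor. Wide intervals, such as 3.12 to 109 for Elane, are also hard to leave. With a prior of 5 counts the primary median log2 ratio was 1.635 and the stage difference fell to 0.005; this prior exceeds the replicate 1 counts of Elane and Ctsg. Elsewhere the difference ran from 0.292 without Mpo to 1.04 without Ctsg. The within-library log2 ratio of primary over later genes was -3.303 in the second table, -4.739 from summed TPM and -2.051 with a pseudocount of 1 TPM. Leaving out 1 library only returns the value of the other, -3.27 for replicate 1 and -3.19 for replicate 2, and so checks nothing further. The share of all genes more than 2-fold higher was 14.7% with no filter, 4.37% from 100 counts, 2.52% from 1000 counts and 5.86% by library total. Depth limits Elane, Ctsg and Prtn3 most, with 2, 3 and 11 counts in replicate 1.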
